A study of Homo sapiens with 3 samples.

Results

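MicroRNA host genes are the genes whose primary transcripts are cut into microRNAs, and 9 such genes with a known place in squamous carcinoma were described here by the ETS1 peaks in and around them. They were MIR205HG, MIR31HG, MIR21 itself, VMP1 (whose 3' end holds MIR21), MIR17HG, MIR22HG, MIR222HG, MIRLET7BHG and MIR4435-2HG, which are 9 of the 64449 nuclear genes of GENCODE release 44 on hg19 (GRCh37). The rule was a list of genes and used no measured value. The list was, however, chosen with earlier results of these data known, so the shares of the members only describe them. A peak was assigned to a gene when its midpoint lay in the gene body or within 100 kb of it. Of 26961 nuclear peaks, 57 distinct peaks were assigned. They make 58 assignments, since 1 peak served both VMP1 and MIR21.

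The study mapped ETS1, a transcription factor of the ETS family, by ChIP-Seq in SCC25, a squamous carcinoma cell line of the head and neck that the labels describe as mesenchymal. There were 3 samples. The polyclonal antibody C20 against ETS1 was used in 2 of them, and 501A, another polyclonal antibody against ETS1, in the remaining 1. No treatment, genotype or second cell line was part of this series, and all 3 samples came from the same line. The authors deposited 1 consensus list over the 3 samples, holding positions and no height, score or depth. Its values therefore carry no replicate error, the depth per sample is not given there, and a gene without a peak was without one that reached the authors' threshold.

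MicroRNAs are short RNAs that pair with messenger RNAs and lower their output. The primary transcript folds into a hairpin that DROSHA and DGCR8 cut out in the nucleus, XPO5 exports it, DICER1 cuts it to the mature length and an Argonaute protein carries it to its targets. Targets are chosen mostly by the seed, bases 2 to 8 from the 5' end. In squamous tissue, miR-205 marks the epithelial state and restrains ZEB factors, miR-21 and miR-31 are known as abundant microRNAs of squamous tumours, miR-221 and miR-222 target the cell cycle inhibitor CDKN1B, the cluster in MIR17HG is a MYC target that favours growth, miR-22 is widely expressed, and let-7 microRNAs restrain RAS, MYC and HMGA2. ETS factors bind a GGAA core, and AP-1, a frequent partner, binds TGANTCA.

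The mature sequences are shown because they name what each host gene makes. They come from RefSeq (GRCh38.p14), and capitals mark the seed. The first 4 lines are the single microRNAs of MIR205HG, MIR31HG, VMP1 and MIR22HG, each with a seed of its own among those listed.
miR-205-5p: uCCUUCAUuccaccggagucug
miR-31-5p: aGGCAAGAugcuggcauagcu
miR-21-5p: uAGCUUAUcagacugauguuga
miR-22-3p: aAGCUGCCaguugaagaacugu
MIR222HG makes a pair that shares the seed GCUACAU.
miR-221-3p: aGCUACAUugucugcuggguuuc
miR-222-3p: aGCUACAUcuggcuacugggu
MIR17HG makes 6 microRNAs, of which miR-17-5p and miR-20a-5p share AAAGUGC and miR-19a-3p and miR-19b-3p share GUGCAAA.
miR-17-5p: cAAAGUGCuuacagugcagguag
miR-20a-5p: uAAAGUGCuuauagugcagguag
miR-18a-5p: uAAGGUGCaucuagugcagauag
miR-19a-3p: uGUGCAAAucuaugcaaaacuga
miR-19b-3p: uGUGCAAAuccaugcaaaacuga
miR-92a-3p: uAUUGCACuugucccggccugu
MIRLET7BHG makes let-7a and let-7b, which share GAGGUAG.
let-7a-5p: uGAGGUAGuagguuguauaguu
let-7b-5p: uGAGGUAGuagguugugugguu

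All 9 genes had at least 1 peak in the gene or within 100 kb, where 73.0% of all genes and 77.1% of the 83 genes named MIR...HG did. A peak lay in the body of 7 of 9 genes, against 22.3% of all genes and 47.0% of the genes named MIR...HG. A peak midpoint lay within 500 bp of an annotated transcription start site (TSS) of the gene itself in 5 of 9, against 21.9% and 31.3%. Those 5 were MIR31HG, VMP1, MIR17HG, MIR22HG and MIRLET7BHG. MIR205HG, MIR21, MIR222HG and MIR4435-2HG had none. For MIR21 the annotation holds only the hairpin of 72 bp, so its TSS there is the hairpin's 5' end. The start of its primary transcript was not examined. The members had a median length of 49.9 kb, against 3.19 kb for all genes, and the part of length in these shares was not tested. The genes named MIR...HG include 7 of the 9 members.

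The number of peaks ranged from 1 to 22. MIRLET7BHG had 22 peaks, MIR22HG 12 and MIR205HG 11. MIR31HG, VMP1 and MIR4435-2HG had 3 each, MIR222HG had 2, and MIR17HG and MIR21 had 1 each. The median of the members was 3 (quartiles 2 and 11), beside a median of 2 (quartiles 0 and 5) over all genes and of 3 (quartiles 1 and 7) over the genes named MIR...HG. Of all genes, 99.7% had fewer peaks than MIRLET7BHG, 93.7% fewer than MIR22HG and 92% fewer than MIR205HG. Per 100 kb of gene and flanks the median of the members was the lowest of the 3, with 0.889 peaks, beside 0.995 for all genes and 1.28 for the genes named MIR...HG. By this density MIRLET7BHG (8.46), MIR22HG (5.83) and MIR205HG (5.39) stood high, and the other 6 members ranged from 0.4 to 0.895, each below the median of all genes. The counts rest on the flank. Within 50 kb, MIRLET7BHG had 19 peaks, MIR205HG 9, MIR22HG 7, VMP1 1, MIR222HG 1 and MIR21 none. Within 20 kb, MIRLET7BHG had 15, MIR205HG 5, MIR22HG 4 and MIR31HG 1.

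**Figure D1:**
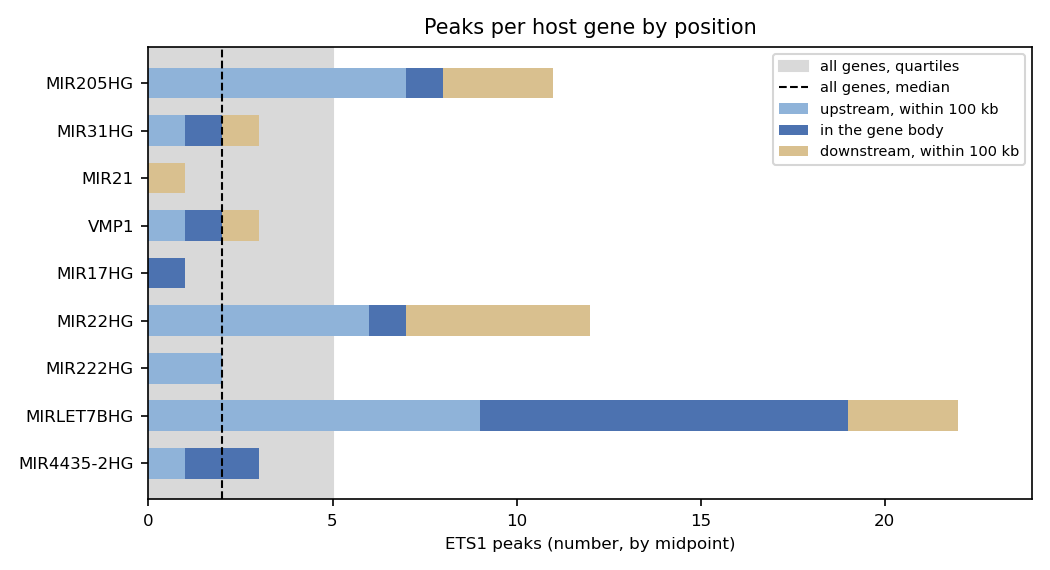
Horizontal bars give the number of ETS1 peaks assigned to each host gene, divided into those upstream, in the gene body and downstream. The band and the dashed line give the quartiles (0 and 5) and the median (2) over all genes, and MIRLET7BHG, MIR22HG and MIR205HG lie beyond the band with 22, 12 and 11 peaks.

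**Figure D2:**
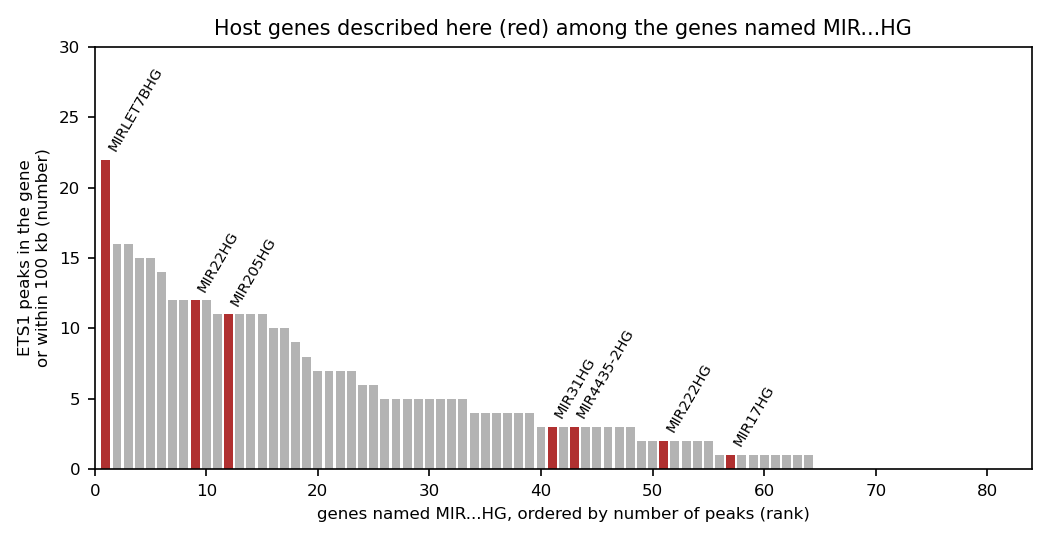
Each bar is 1 of the 83 genes named MIR...HG, ordered along the horizontal axis by its number of ETS1 peaks in the gene or within 100 kb, with the 7 described here in red. MIRLET7BHG leads the class with 22 peaks, and MIR17HG stands near its lower end with 1.

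MIR205HG, the host of miR-205, had most of its peaks outside the short gene. The gene lies on chromosome 1 from 209602162 to 209606193, plus strand, and its 11 peaks were 7 upstream, 1 in the body and 3 downstream, a density of 5.39 per 100 kb against a median of 0.995 over all genes. The upstream peaks lay between 529 and 57978 bp from the gene's start. The nearest of them, from 209601213 to 209602054, had its midpoint just outside the 500 bp limit, so no peak was counted at the TSS. The body peak, from 209603382 to 209605790, was 2409 bp wide and covered the miR-205 hairpin (209605478 to 209605587). Of the 11 peaks, 10 lay in the super-enhancer of rank 4, which is 127 kb long and covers the whole gene. A super-enhancer is a long stretch of dense enhancers, and rank counts from the strongest. None of the 11 lay within 500 bp of the TSS of another gene.

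The 300 bp at the midpoint of the body peak of MIR205HG held 4 copies of the ETS core, all AGGAAG, and 1 AP-1 letter match. It is shown for this repeat of 1 letter pattern in the peak that covers the hairpin. In this sequence and those that follow, read from GRCh37 on the strand of the host gene, capitals mark the letters of an ETS core (CGGAA or AGGAA, with the neighbouring base where the core is part of one of the longer patterns listed with the motif shares) or of the AP-1 pattern TGANTCA, on either strand.
MIR205HG, chr1:209604436-209604735, plus strand: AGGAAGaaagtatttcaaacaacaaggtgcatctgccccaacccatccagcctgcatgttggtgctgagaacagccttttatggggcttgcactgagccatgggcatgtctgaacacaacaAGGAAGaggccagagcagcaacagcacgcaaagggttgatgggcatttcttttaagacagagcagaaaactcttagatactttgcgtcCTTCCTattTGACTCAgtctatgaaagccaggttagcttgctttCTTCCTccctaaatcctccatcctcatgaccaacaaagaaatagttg

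MIR31HG, the host of miR-31, had a peak on its start and none along the body to the hairpin. The gene lies on chromosome 9 from 21380072 to 21559890, minus strand, over 180 kb. Its body peak, from 21559177 to 21560566, had its midpoint 2 bp from an annotated TSS of the gene and 23 bp from that of the canonical transcript. A peak of 442 bp lay 31969 bp upstream. Both lay in the super-enhancer of rank 310, which covers 37.6% of the gene and the miR-31 hairpin. The remaining peak lay 44781 bp downstream at the TSS of KLHL9, an adaptor of a cullin ubiquitin ligase. The miR-31 hairpin lay 47.7 kb from the nearest peak midpoint, in a stretch of 223 kb without a peak.

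The midpoint window of the MIR31HG start was GC-rich (77% GC, 37 CpG) and held 1 ETS core, CGGAA read on the opposite strand. It is shown as the start site that carries the peak nearest to a host gene's own TSS.
MIR31HG, chr9:21559721-21560020, minus strand: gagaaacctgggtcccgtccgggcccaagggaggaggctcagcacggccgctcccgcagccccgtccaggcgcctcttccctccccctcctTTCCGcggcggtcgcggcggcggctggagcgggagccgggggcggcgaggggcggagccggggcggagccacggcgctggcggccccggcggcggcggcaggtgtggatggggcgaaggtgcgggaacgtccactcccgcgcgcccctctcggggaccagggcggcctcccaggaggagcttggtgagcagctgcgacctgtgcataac

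VMP1, a membrane protein of the endoplasmic reticulum needed for autophagy, had a peak at its promoter and none in the super-enhancer that holds MIR21. The gene lies on chromosome 17 from 57784553 to 57919616, plus strand, and MIR21 lies at its end, from 57918627 to 57918698 on the same strand. The promoter peak, from 57784343 to 57785426, had its midpoint 6 bp from an annotated TSS of VMP1 and lay also within 500 bp of a TSS of PTRH2, the peptidyl-tRNA hydrolase gene. The other peaks lay at the TSS of CLTC, the clathrin heavy chain gene, 87261 bp upstream, and at the TSSs of RPS6KB1, a ribosomal S6 kinase gene, and TUBD1, a tubulin gene, 50887 bp downstream. The last of these, from 57969910 to 57971096, was the only peak assigned to MIR21, 51805 bp from it.

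The super-enhancer of rank 76 runs on chromosome 17 from 57824596 to 57936737, covers 70.4% of VMP1 and all of MIR21, and held 0 peaks by midpoint and 0 by overlap. Among all super-enhancers that the authors called from H3K27ac, a histone mark of active enhancers, the median was 4 peaks (quartiles 2 and 6) and 16, or 1.66%, held none. Of the 182 super-enhancers at least as long as this one, at 112 kb, 4 held no peak. It was the only one of ranks 1 to 100 without a peak. The miR-21 hairpin lay 51.8 kb from the nearest peak midpoint, in a peak-free stretch of 184 kb, and 89% of the gaps between neighbouring peaks were shorter. The median gap between neighbouring peaks was 25.8 kb. A given position falls in a long gap more often than in a short one. These values therefore do not show how unusual the stretch around miR-21 is. Whether ETS1 bound this region below the threshold of the list was not tested.

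**Figure D3:**
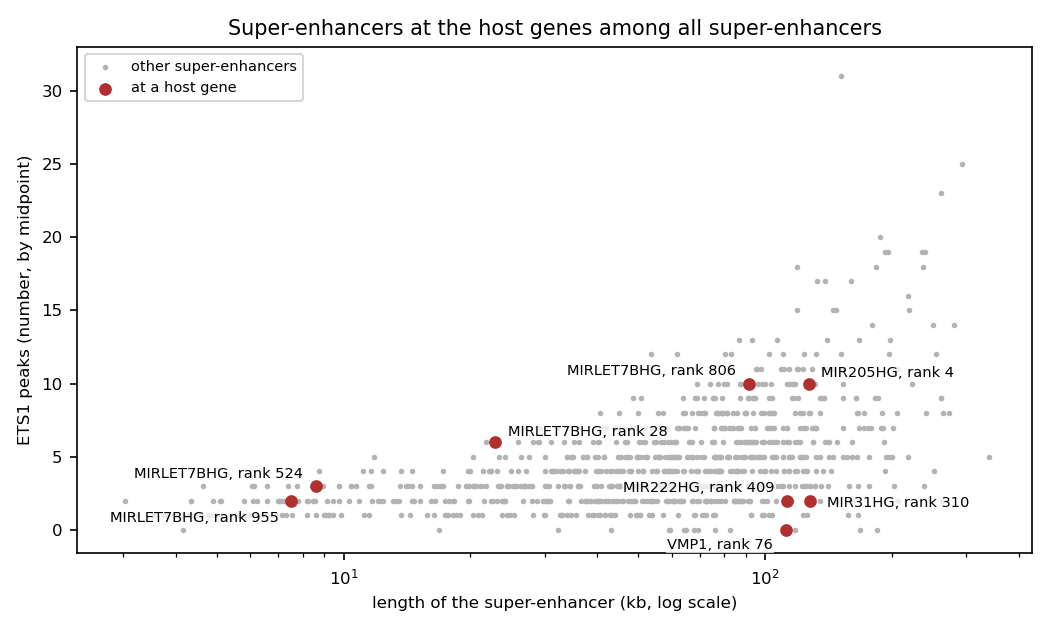
Each point is 1 super-enhancer, with its length in kb on a log axis and its number of ETS1 peaks by midpoint. The 8 super-enhancers over or within 100 kb of a host gene are in red with their rank. They range from 0 peaks for the VMP1 region of 112 kb to 10 peaks for that of MIR205HG and for that of rank 806 near MIRLET7BHG.

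The promoter peak of VMP1 held the most ETS cores of all 57 windows. Its 300 bp held 8 copies of CGGAA or AGGAA, against a median of 2 over all peaks, and 4 copies of CCGGAA, a core with a second flanking C. The short stretches between neighbouring CCGGAA sites are shown for this density. In the first stretch all marked motifs read on the opposite strand, and in the second they point both ways.
VMP1, chr17:57784809-57784837, plus strand: TTCCGGggTTCCTgggtgacaagTTCCGG
VMP1, chr17:57784998-57785023, plus strand: CCGGAAGtgacgtgagcgggTTCCGG
In the RefSeq promoters, which span 300 bases around the start, VMP1 had 7 cores, the highest number among the 8 members with such an entry. At least 1 core stood in 7 of these 8 promoters, against 77.6% of 35116 promoters, and CCGGAA in 2, those of VMP1 and MIRLET7BHG, against 17.2%. The promoter of MIR205HG held none.

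MIR17HG, the host of miR-17, miR-18a, miR-19a, miR-20a, miR-19b and miR-92a, had a single peak, at its start. The gene lies on chromosome 13 from 91999940 to 92049846, plus strand. The peak, from 91999244 to 92001612, was 2369 bp wide with its midpoint 232 bp from an annotated TSS. The 6 hairpins lay 2.47 to 3.18 kb from that midpoint, all beyond the peak's end. The stretch without a peak that begins there ran for 3200 kb, and 99.7% of gaps between neighbouring peaks were shorter. It was picked by the hairpins in it, so, as for miR-21, that share does not show how unusual it is. No super-enhancer lay over the gene or within 100 kb. The peak was number 14637 of the list, outside its first 13485 peaks, and what orders the list is not given in the sources used here.

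The midpoint window of this peak held no ETS core (83% GC, 47 CpG), but the 600 bp at the midpoint held 1 and the whole peak 10. The window of 300 bp is shown as one of the 10 windows of 57 without these letters.
MIR17HG, chr13:92000278-92000577, plus strand: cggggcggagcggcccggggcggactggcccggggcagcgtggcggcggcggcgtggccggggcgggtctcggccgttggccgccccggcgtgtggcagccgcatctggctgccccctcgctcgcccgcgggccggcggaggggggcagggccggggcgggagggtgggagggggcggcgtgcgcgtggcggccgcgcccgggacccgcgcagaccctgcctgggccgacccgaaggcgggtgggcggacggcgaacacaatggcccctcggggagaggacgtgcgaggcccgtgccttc

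MIR22HG, the host of miR-22, had a wide peak over its start and hairpin in a region with many peaks at other genes. The gene lies on chromosome 17 from 1614741 to 1620468, minus strand, and its 12 peaks were 6 upstream, 1 in the body and 5 downstream. The body peak, from 1616975 to 1621512, was 4538 bp wide, had its midpoint 257 bp from an annotated TSS and covered the miR-22 hairpin. Of the other 11 peaks, 5 lay at the TSS of another gene, those of SLC43A2 (an amino acid transporter), SCARF1 (a scavenger receptor), RILP (a lysosomal adaptor), PRPF8 (a core spliceosome protein) and WDR81. No super-enhancer lay over the gene or within 100 kb.

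The midpoint window of the body peak of MIR22HG held 3 ETS cores. In 1 the core CGGAA was flanked on both sides, so that it counts as CCGGAA and as CGGAAG, another was CGGAAG and the third was AGGAAA. It is shown as the window of the peak that covers both a start and a hairpin.
MIR22HG, chr17:1619093-1619392, minus strand: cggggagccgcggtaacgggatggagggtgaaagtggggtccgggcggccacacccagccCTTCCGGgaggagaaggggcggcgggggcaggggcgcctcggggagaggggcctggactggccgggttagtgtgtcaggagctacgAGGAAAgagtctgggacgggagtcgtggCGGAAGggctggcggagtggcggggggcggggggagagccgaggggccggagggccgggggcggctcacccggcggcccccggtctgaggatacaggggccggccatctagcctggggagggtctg

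MIR222HG, the host of miR-221 and miR-222, had no peak in the gene. It lies on the X chromosome from 45604638 to 45629677, minus strand. Its 2 peaks lay 18810 and 81128 bp upstream, the first 332 bp wide and the second, 1368 bp wide, at the TSS of the noncoding gene LINC02595. Both lay in the super-enhancer of rank 409, which is 113 kb long, covers the whole gene and held these 2 peaks. The hairpins of miR-221 and miR-222 lay 42.8 and 42 kb from the nearest peak midpoint, in a peak-free stretch of 915 kb.

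The window of the nearer peak held 1 ETS core, AGGAAA read on the opposite strand, and is shown as the peak closest to the gene's start.
MIR222HG, chrX:45648337-45648636, minus strand: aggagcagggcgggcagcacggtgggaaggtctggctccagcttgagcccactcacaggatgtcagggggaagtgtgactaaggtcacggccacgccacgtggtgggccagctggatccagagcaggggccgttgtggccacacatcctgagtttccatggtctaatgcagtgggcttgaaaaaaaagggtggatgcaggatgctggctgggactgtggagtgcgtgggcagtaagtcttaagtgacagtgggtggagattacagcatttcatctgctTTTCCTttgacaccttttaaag

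MIRLET7BHG, the host of let-7a, let-7b, miR-3619 and miR-4763, had more peaks than any other member. The gene lies on chromosome 22 from 46449749 to 46509808, plus strand, and 10 of its 22 peaks lay in the body, 9 upstream and 3 downstream. The density was 8.46 per 100 kb, and 99.1% of genes had a lower one. Of the 10 body peaks, 9 had their midpoint in an intron and 1 in an exon. Peaks lay at annotated TSSs of the gene 4 times, with midpoints 283, 253, 83 and 149 bp from the start of a transcript. The first of these, from 46447999 to 46450933, lay also at the TSS of PRR34-AS1, and 5 further peaks lay at other genes only, among them WNT7B, a WNT ligand gene, and PPARA, the nuclear receptor gene for fatty acids. The peak at WNT7B was 5176 bp wide, the widest of the 57.

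Super-enhancers of rank 28 and 524 lay over MIRLET7BHG, with 6 and 3 peaks, and those of rank 806 and 955 lay within 100 kb. In all, 13 of the 22 peaks lay in a super-enhancer. The region of rank 28 lies wholly inside the gene, over 22.9 kb, and held 2.62 peaks per 10 kb, against 0.79 in the 127 kb region of MIR205HG. Those of rank 524 (8.6 kb) and 955 (7.52 kb) held 3.49 and 2.66 per 10 kb, and that of rank 806 (91.5 kb) held 1.09. The part of length in these densities was not tested. None of the 4 covered a hairpin. The let-7a and let-7b hairpins lay at the far end of the gene, 58.9 and 59.9 kb from its start, and 7.04 and 7.99 kb from the nearest peak midpoint in a peak-free stretch of 18.9 kb. The miR-3619 hairpin was covered by a body peak from 46484919 to 46487780.

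The window of the peak from 46467106 to 46468727, at an internal TSS inside the region of rank 28, had 80.7% GC and 54 CpG, and held 1 CCGGAA. It is shown as a CpG-rich internal start.
MIRLET7BHG, chr22:46467766-46468065, plus strand: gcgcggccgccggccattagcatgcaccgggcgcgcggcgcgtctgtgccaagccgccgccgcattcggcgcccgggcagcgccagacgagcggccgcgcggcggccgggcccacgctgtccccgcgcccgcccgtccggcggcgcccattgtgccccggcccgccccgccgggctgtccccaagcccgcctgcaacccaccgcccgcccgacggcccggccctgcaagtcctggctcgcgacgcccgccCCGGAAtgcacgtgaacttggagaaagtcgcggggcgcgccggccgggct

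MIR4435-2HG, a long noncoding gene that holds miR-4435, had body peaks far from its own start. It lies on chromosome 2 from 111763592 to 112280953, minus strand, over 517 kb. The 2 body peaks, from 111874555 to 111876764 and from 111877557 to 111881050, were intronic, with midpoints 1296 and 812 bp from a TSS of BCL2L11, a proapoptotic gene of the BCL2 family that is named here after its position was seen. The third peak lay 94718 bp upstream. The TSS of the canonical transcript lay 123024 bp from its nearest peak midpoint, that of the upstream peak. The hairpin lay 199 kb from its own nearest midpoint, that of a body peak, in a peak-free stretch of 494 kb. No super-enhancer lay over the gene or within 100 kb.

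**Figure D4:**
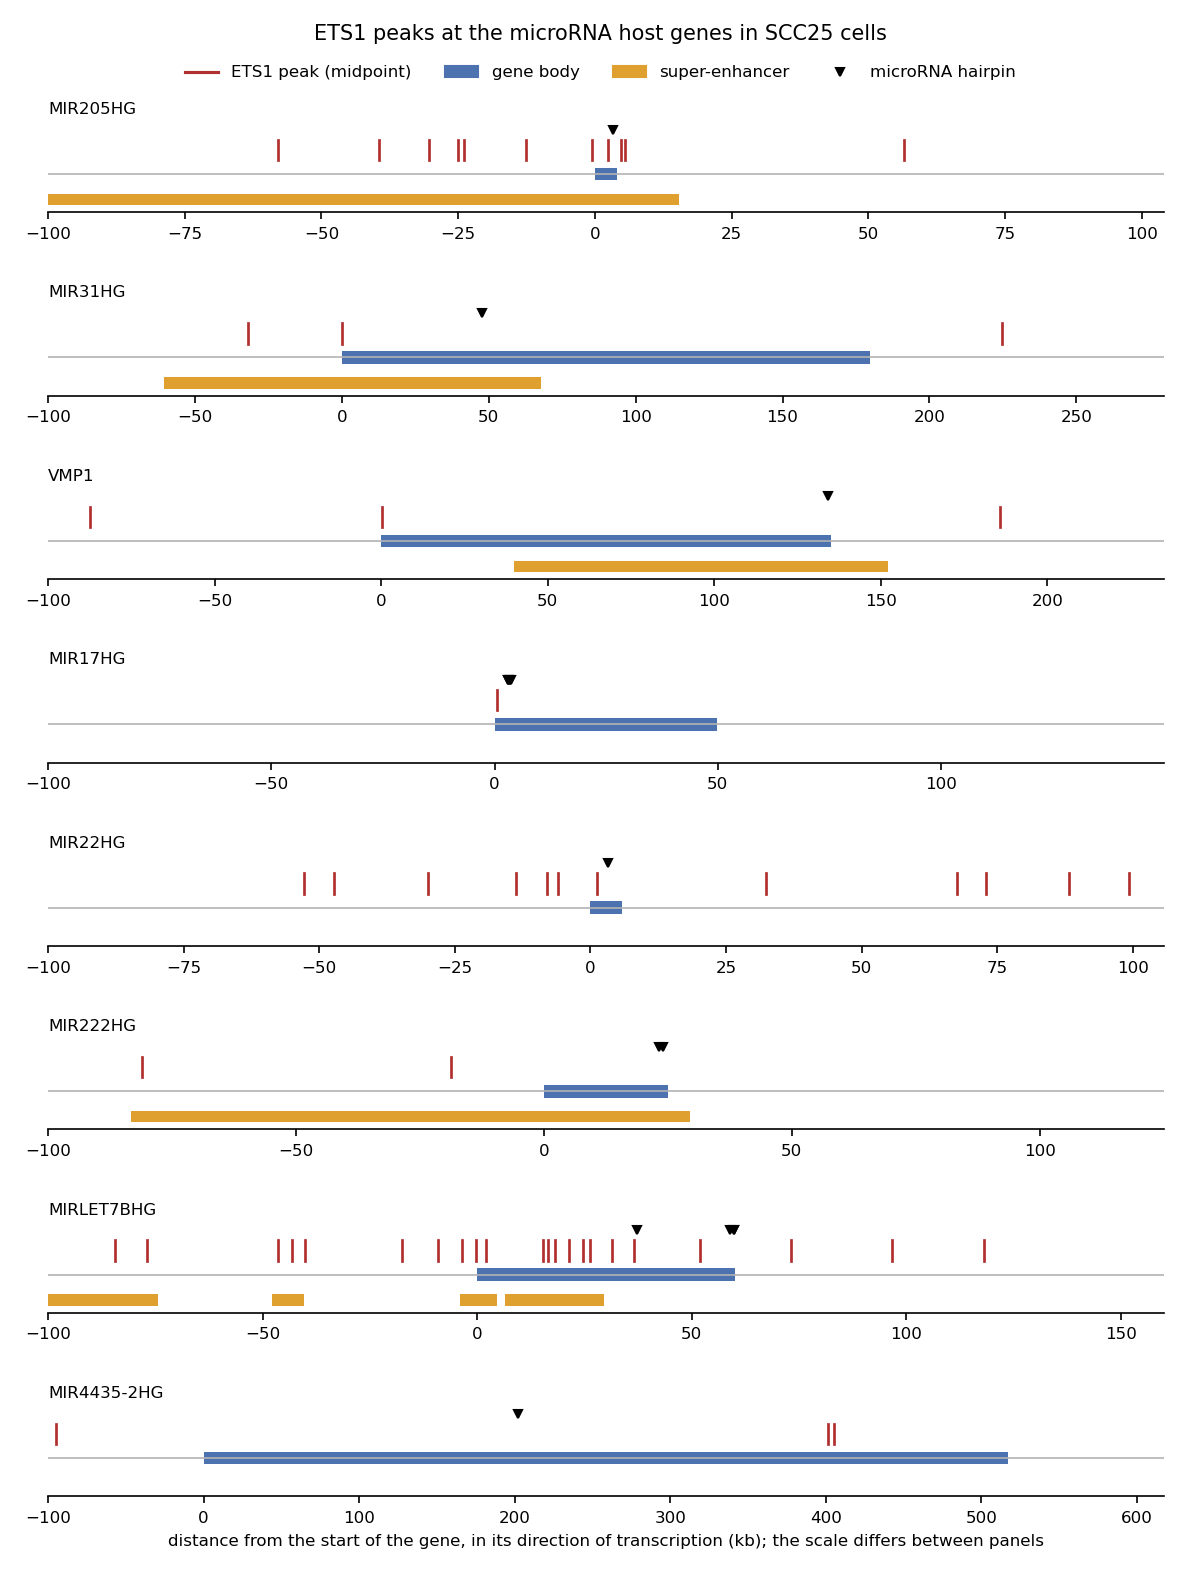
Each panel draws 1 host gene and 100 kb on either side, in kb from the start of the gene in its direction of transcription, with ETS1 peak midpoints as red lines, the gene body in blue, super-enhancers in orange and microRNA hairpins as triangles. MIR21 is the triangle at the end of VMP1, where the orange bar carries no red line, and the MIR205HG panel has 10 red lines above its orange bar.

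Over all members, 17 hairpins lay in the host genes on the same strand and 3 were covered by a peak, those of miR-205, miR-22 and miR-3619. That share of 17.6% stands beside 10.3% of the 1570 RefSeq hairpins that could be placed. The median distance to the nearest peak midpoint was 3.18 kb, beside 18.5 kb for all placed hairpins. That median is the value of miR-92a in MIR17HG, whose 6 hairpins lay 2.47 to 3.18 kb away, so it depends on this cluster. The 6 hairpins of MIR17HG share 1 peak, as do the let-7 hairpins, so the 17 are not independent. In a super-enhancer lay 5 hairpins, those of miR-205, miR-31, miR-21, miR-221 and miR-222 (29.4%), beside 6.18% of all placed hairpins. Those of miR-221 and miR-222 share the region of rank 409, so the 5 are not independent either. Of these 5, only miR-205 was covered by a peak, and the other 4 lay 42 to 51.8 kb from the nearest midpoint.

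**Figure D5:**
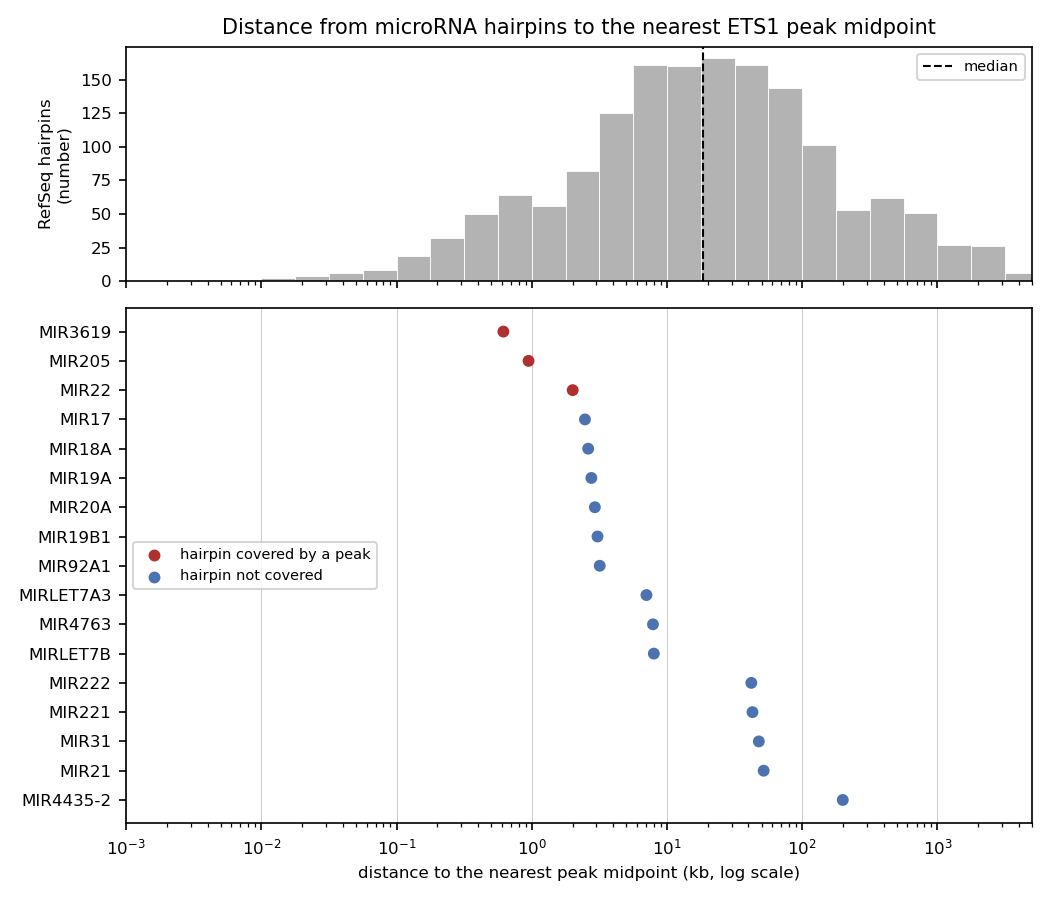
The upper panel counts all 1570 placed RefSeq hairpins by distance to the nearest ETS1 peak midpoint (kb, log scale), with the median of 18.5 kb dashed. The lower panel gives the 17 hairpins of the host genes, with the 3 covered ones in red at 0.616, 0.946 and 2.01 kb and miR-4435 farthest at 199 kb.

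A super-enhancer lay over 6 of 9 members, against 4.73% of all genes and 10.8% of the genes named MIR...HG. The 6 were MIR205HG, MIR31HG, MIR21, VMP1, MIR222HG and MIRLET7BHG, and MIR21 and VMP1 share 1 region. Of them, MIR205HG, MIR31HG, MIR222HG and MIRLET7BHG also count in the share of the genes named MIR...HG. The median length was 49.9 kb for the members and 3.19 kb for all genes, and the part of length here was not tested. Of the 57 peaks, 27 (47.4%, 95% Wilson interval 35 to 60.1%) lay in a super-enhancer, beside 17.1% of all nuclear peaks. MIRLET7BHG gave 13 of the 27, MIR205HG 10, and MIR31HG and MIR222HG 2 each. The interval covers counting error only, and peaks of 1 locus are not independent.

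The 57 peaks ranged in width from 327 to 5176 bp. Their median width was 1368 bp (quartiles 704 and 2210), beside 969 bp (609 and 1462) for all peaks. MIRLET7BHG gave 22 of the 57, with a median of 1751.5 bp. The medians of MIR205HG (501 bp), MIR31HG (782 bp) and MIR222HG (850 bp) lay below that of all peaks, and those of the other members above it. Wide peaks were thus not general to the members. A TSS of any gene lay within 500 bp of 22 (38.6%, interval 27.1 to 51.6%), beside 43.3% of all peaks, and 23 (40.4%, interval 28.6 to 53.3%) lay over 1500 bp from one, beside 48.2%. The median GC content of the 300 bp at the midpoint was 62%, beside 58.7%.

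Each letter pattern searched stood at the midpoints in a share close to that over the whole list. CGGAA or AGGAA stood in 47 of 57 windows of 300 bp (82.5%, interval 70.6 to 90.2%), against 80.5% of all. With 600 bp it stood in 56 of 57, against 95.4% of all. Over the whole peak it stood in 57 of 57, against 97.7%. The longer patterns each contain this core and were searched on both strands. The pattern CCGGAA stood in 15.8% of the windows against 16.3% of all. For CGGAAG the shares were 15.8% against 18.4%. For AGGAAG they were 40.4% against 41.2%, and for AGGAAA 29.8% against 28.5%. The AP-1 pattern TGANTCA stood in 19.3% against 20.5%. Windows with CCGGAA and windows with TGANTCA were both found at MIR31HG, MIR22HG and MIRLET7BHG. Of the 11 windows of MIR205HG, 4 held TGANTCA and none CCGGAA, and of the 3 windows of VMP1, 2 held CCGGAA and none TGANTCA. With so few windows a locus and no test, no difference between loci is read from these counts.

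The list of genes that process microRNAs was chosen with earlier results of these data known, so its shares only describe it. Most of the listed genes carried a peak at a promoter. Of 22 such genes, 18 (81.8%) had a peak within 500 bp of a TSS, beside 53.1% of 20163 protein-coding genes, and 16 (72.7%) had one in the body, beside 53.4%. Both genes of the nuclear cutting complex, DROSHA and DGCR8, were among the 18, as were the export receptor gene XPO5, the dicing enzyme gene DICER1 and the effector genes AGO2 and AGO3. Those without were AGO1 and AGO4, further Argonaute genes, LIN28B, which blocks let-7 processing, and TARBP2, a partner of DICER1. AGO2 had 15 peaks, 7 of them in the gene, and was the single gene of the 22 under a super-enhancer, where 6.66% of protein-coding genes were. DROSHA had 1 peak. The median was 4 peaks for the list and 4 for protein-coding genes.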

How the data were processed

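ETS1 ChIP-Seq in SCC25 cells was sequenced as single-end reads by the authors, who aligned them to hg19 with Bowtie 1.1.1, handled them with SAMtools 1.3, called peaks with MACS2 against merged input, and kept 1 consensus list by IDR over 3 samples (2 with C20, 1 with 501A). What they deposited has 3 columns, chromosome, start and end. The values are positions with no signal, so there was no replicate spread, no depth and no test. Starts were converted to count from 1, and 9 mitochondrial peaks were set aside. Super-enhancers are the regions of rank 1 to 965 that the authors called from H3K27ac with ROSE, of which only positions and ranks were used.

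Genes and TSSs came from GENCODE 44 lifted to GRCh37. Hairpins were placed by a single exact match of the RefSeq sequence within 5 Mb of its position on the table's own build, because several (miR-205, miR-22 and the MIR17HG cluster) have no entry in that annotation, and miR-22 was placed by its mature sequences. RefSeq promoters lacked an entry for MIR21. Shares have 95% Wilson intervals, which cover counting error only. The genes named are the members, their microRNAs, genes with a TSS within 500 bp of an assigned peak and 22 microRNA processing genes. BCL2L11 falls outside this rule and was named after its position was seen. Members and lists were chosen with earlier results of these data known. Counting functions were tested on simulated data. Python 3.11.15, pandas 2.3.3, scipy 1.17.1 and statsmodels 0.14.6 were used. Alternatives were the flank, assignment by overlap, TSS distance, window length, joining of peaks within 1 kb and the first 13485 listed peaks.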

Additional observations from a re-analysis of the deposited data

How the results depend on the processing

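The 7 counts described for the members were recomputed under 19 alternatives, of which 14 stayed within 1.5 times the main value. With a flank of 20 kb the distinct peaks were 30, and MIR21 had none (nor with 50 kb). With only the first 13485 listed peaks there were 26 distinct peaks, 11 of them in a super-enhancer, and 3 members had a peak in the body and 3 at a TSS. The list carries no score and the meaning of its order is not given, so those values are not a stricter threshold. A distance of 1500 bp added MIR205HG to the members with a peak at a TSS, making 6. No paired analysis was possible because the deposited list is pooled over the samples, and for the same reason no replicate could be left out.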
